A study of Oryza sativa Japonica Group with 59 samples.

Results

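The meiocyte-enriched genes were the 200 rice features whose transcript level in wild-type meiocytes most exceeded their level in the other wild-type reproductive cells. Levels were taken as TPM, in which each read count is divided by gene length and scaled to the same sum in every library. Of 55986 features, 10467 had a mean of at least 10 TPM in WT meiocyte, and these were ranked by the WT meiocyte mean plus 1 over the highest other WT mean plus 1. The ratio ran from 2639 at rank 1 to 23.3 at rank 200. LOC_Os11g28010, at rank 200, had 22.3 TPM in WT meiocyte, and LOC_Os11g28080, the first feature outside the set, had 22.2 TPM and a ratio of 23.2, so the edge of the set was gradual. The WT libraries chose the genes, so their WT pattern is given as a description, with no test.

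All plants were of the *japonica* variety Zhonghua11, and the 27 RNA-seq libraries fell into 10 groups. They were *cmt3b* meiocyte (3 libraries) and WT meiocyte (3), WT unicellular microspore (3), *cmt3b* sperm (3) and WT sperm (2 files), *cmt3b* egg (2), *cmt3a* egg (2) and WT egg (3), and *cmt3b* zygote (3) and WT zygote (3). Mutant plants were Cas9-free descendants of CRISPR/Cas9 transformants, and wild-type plants had been regenerated from tissue culture. Meiocytes came from panicles of about 5 cm, freed by removing the outer wall of the anther, and microspores from panicles of about 8 cm. Zygotes were labelled 6 to 8 hours after fertilization. Cells were picked by micromanipulation and their cDNA was amplified. Each library was made from a pool of cells. The labels did not give the mutant line or the number of plants behind each library, so p-values measured the spread between libraries, which may be technical.

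Meiocytes are the cells of the anther that enter meiosis. Each one gives rise to haploid microspores, which divide to form pollen grains that carry the sperm, and the egg cell becomes the zygote on fertilization. CMT3a and CMT3b are chromomethylases, enzymes that methylate cytosine in the CHG context (H being any base but G), a mark found mainly on transposable elements and associated with silencing. The *cmt3b* comparison in meiocytes asked which transcripts changed where this enzyme was mutated, and the comparisons in sperm, egg and zygote asked whether meiocyte transcripts appeared in mutant gametes.

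Library depth ran from 9240046 to 25610860 counts. CMT3b itself (LOC_Os03g12570) was at 1.34, 1.53 and 1.48 TPM in *cmt3b* meiocyte, against 7.95, 6.14 and 7.29 TPM in WT meiocyte, and the *cmt3b* libraries lay below WT in sperm, egg and zygote as well. CMT3a (LOC_Os10g01570) was at 4.46 and 4.86 TPM in *cmt3a* egg, against 11.8 to 13.8 TPM in WT egg. The other chromomethylase differed as well, not always in the same direction. CMT3a was at 10.4 ± 1.13 TPM in *cmt3b* meiocyte and 28.5 ± 0.649 TPM in WT meiocyte (SD, n = 3 each). CMT3b was at 0.0799 and 0.225 TPM in *cmt3a* egg, against 1.35 to 1.46 TPM in WT egg. CMT3a was higher in *cmt3b* egg, at 16.2 and 21.3 TPM, against 11.8 to 13.8 TPM in WT egg. It was at 1.05 to 1.39 TPM in *cmt3b* sperm (1.71 and 1.74 TPM in WT) and at 99.7 to 107.8 TPM in *cmt3b* zygote (112 to 118 TPM in WT). The only meiosis gene that the sources used here pair with a locus ID, HEIP1 (LOC_Os01g07330), did not mark the meiocytes, with 3.99 ± 0.341 TPM in WT meiocyte (SD, n = 3) and 15.96 TPM in WT sperm, so the cell label could not be checked with it. Meiosis loci known only from general knowledge are not given here, whereas anther wall loci of that kind are. The markers of the cell types were thus not used alike, and HEIP1 alone is no evidence against the label. RNA of the anther wall, mainly the tapetum that feeds the developing cells, could be present in cells freed from anthers. A list of 10 loci taken from general knowledge as tapetum or anther wall genes, whose IDs the sources used here do not annotate, summed to 1365 to 1384 TPM in *cmt3b* meiocyte, 1283 to 1307 TPM in WT meiocyte and 56844 to 68135 TPM in WT microspore, with 8, 8 and 7 of the 10 at or above 10 TPM. In *cmt3b* sperm the list summed to 139 to 155 TPM, with 5 of the 10 at or above 10 TPM. In WT sperm it summed to 71.2 to 71.9 TPM, with 1 of the 10 at that level. In the egg and zygote groups the sum was 12.6 to 35.1 TPM. None of the 10 belonged to the meiocyte-enriched set. The ranking divides by the highest other WT mean, so loci higher in WT microspore than in WT meiocyte could not enter it. The list was higher in WT microspore by its sum. With 8 loci at or above 10 TPM in WT meiocyte and 7 in WT microspore, this does not cover every locus of the list. Values of single loci are not given here, and the absence of the 10 was not used to judge anther wall RNA. How far anther wall RNA had a part in the set was not tested. Counts of the 2 files of WT sperm differed by less than sampling noise (chi-square/df 0.240, against 1.37 to 6.73 in 23 other replicate pairs) and were counted as 1 sample. WT microspore and *cmt3a* egg libraries detected more features (42291 to 42885 and 35470 to 38089) than the other groups (26112 to 32046).

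The 200 genes took a sizeable part of the transcripts in meiocyte libraries and almost none in the others. Together they held 8.00% ± 0.164 of TPM in *cmt3b* meiocyte and 7.12% ± 0.0544 in WT meiocyte (SD, n = 3 each). In WT microspore they held 0.0374%. In the gametes and zygotes the share lay between 0.00797% in WT egg and 0.0561% in *cmt3b* sperm. In WT, 27 of the 200 were listed at 0 in all cell types but meiocyte, and 143 stayed under 1 TPM there. WT microspore, the next stage of the male line, was the next-highest WT group for 128, followed by sperm for 21, egg for 15 and zygote for 9. Microspore libraries also detected the most features, and the part of that in this order was not tested.

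**Figure D1:**
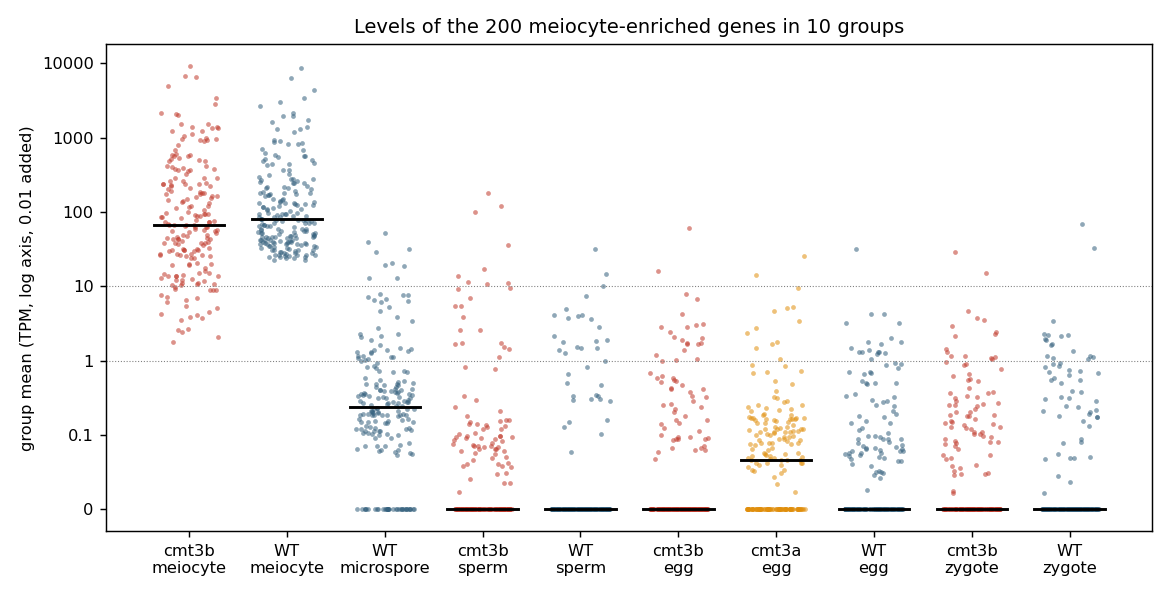
Mean level of each of the 200 meiocyte-enriched genes in each of the 10 groups (points, TPM on a log axis with 0.01 added) and the median gene (bar). The median gene was at 67.4 TPM in cmt3b meiocyte and 79.6 TPM in WT meiocyte, at 0.228 TPM in WT microspore, and at or near 0 in every gamete and zygote group.

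A few members dominated. LOC_Os06g37680, the most abundant in WT, had 6932, 6755 and 6634 TPM in the 3 *cmt3b* meiocyte libraries, against 8819, 8438 and 8761 TPM in WT meiocyte. LOC_Os11g10890 had 9530.3, 8812 and 9043 TPM in *cmt3b* meiocyte, against 6309.7, 6460.4 and 6277 TPM in WT meiocyte. LOC_Os04g38840 had 7129, 6083 and 6509 TPM in *cmt3b* meiocyte, against 4101, 4538 and 4271 TPM in WT meiocyte. In all 3 genes every *cmt3b* library lay outside the WT range, the first gene being lower in *cmt3b* and the others higher, although none reached a 2-fold change (log2 fold changes −0.15, 0.73 and 0.81). Such separation was common, since 187 of the 200 members had no overlap in TPM between the meiocyte groups. The share over all features is not given here. The 10 most abundant members held 51.6% of the summed TPM of the set in *cmt3b* meiocyte and 50.9% in WT meiocyte.

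The 3 members with the highest ratios were LOC_Os11g10890, LOC_Os03g45150 and LOC_Os11g10880. LOC_Os03g45150 had 3172, 3547 and 3515 TPM in *cmt3b* meiocyte, against 3216, 2901 and 3042 TPM in WT meiocyte, and these libraries overlapped on the TPM scale (edgeR log2 fold change 0.36 ± 0.046 SE, under 2-fold). LOC_Os11g10880 had 5002, 4705 and 4909.7 TPM in *cmt3b* meiocyte, against 3414, 3599.6 and 3314 TPM in WT meiocyte. All 3 were at 0 in both WT sperm files, and their mean in WT microspore was 0.337 to 1.41 TPM. What their products do is not given in the sources used here, and IDs of the set without an annotation are printed as IDs only.

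The members shared 3 features beyond their level. They were short, with a median length of 550.5 bp (quartiles 312 and 981), against 1565 bp (1027 and 2202) for the 10467 features with at least 10 TPM in WT meiocyte. Length is not independent of the ranking, since TPM divides by it and a short gene reaches a given TPM on fewer counts. LOC_Os11g28010, for instance, reached its 22.3 TPM on 47 to 85 counts. The members were unevenly spread over the chromosomes. Chromosome 12 carried 32 members (16%, against 5.84% of the 10467 features), chromosome 6 carried 27 (13.5%, against 8.04%) and chromosome 11 carried 25 (12.5%, against 4.43%), whereas chromosome 1 carried 9 (4.5%, against 13.5%). They also lay near each other. Locus numbers follow gene order along a chromosome, mostly in steps of 10, and 51 members fell into 13 runs of at least 3 in which neighbouring members were at most 200 numbers apart. Another 48 formed 24 pairs, and the rest stood alone. These shares are descriptions. Similar neighbouring genes can exchange reads, counting was not stated to use strand, and neither was tested, so the values of neighbouring or overlapping members are uncertain to that extent.

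Only 5 of the 200 IDs carried an annotation in the study's gene tables. None occurred in the RefSeq gene table, which was searched for the ID alone, so whether the genes are annotated there is not known. LOC_Os03g59280 (SCL1, a protein with a plastocyanin-like, copper-binding type of domain) and LOC_Os06g42860 (a putative triacylglycerol lipase precursor, a class of enzymes that release fatty acids from storage lipid) were joined by LOC_Os06g42270, LOC_Os06g42440 and LOC_Os12g40160, which are listed as expressed proteins with no stated role. The first 4 belong to the study's list of 148 genes raised with loss of CHG methylation in *cmt3b* meiocyte, of which 16 had at least 10 TPM in WT meiocyte. That list was chosen on these samples and is no independent evidence of direction. LOC_Os12g40160 belongs to the study's list of 315 genes gaining CHG methylation in microspores. The study's lists of 132 sexual-lineage methylated genes, of 122 genes of *cmt3b* sperm and of 83 genes of *cmt3b* egg held no member.

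All 5 annotated members were higher in *cmt3b* meiocyte. For 4 of them, SCL1 and LOC_Os06g42860 included, the annotation came from the study's list of genes raised in these samples. Their direction was therefore fixed in advance, and their p-values are descriptions. SCL1 had 508, 513 and 501 TPM in *cmt3b* meiocyte, against 227, 213 and 199.7 TPM in WT meiocyte (log2 fold change 1.45 ± 0.045 SE, edgeR adjusted p = 5.34e-21). LOC_Os06g42860 had 217, 228 and 221 TPM in *cmt3b* meiocyte, against 92.3, 91.9 and 92.6 TPM in WT meiocyte (log2 fold change 1.47 ± 0.041 SE, edgeR adjusted p = 6.89e-22). In both genes the groups were far apart (2.74-fold and 2.76-fold). LOC_Os06g42270, LOC_Os06g42440 and LOC_Os12g40160 rose by log2 fold changes of 1.27, 1.09 and 1.07, with no overlap between libraries, as in most members.

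Over the whole set, change in *cmt3b* meiocyte went both ways, with more members lower than higher. Of the 200, all of which passed the filter on low counts, 57 were lower (28.5%, against 7.9% of the 23192 features tested) and 33 higher (16.5%, against 10.7%), called where the edgeR adjusted p was below 0.01 with more than a 2-fold change. Among the other 10267 features with at least 10 TPM in WT meiocyte, 6.09% were lower and 5.68% higher. The median log2 fold change was near 0, at −0.08 for the members and −0.02 for all features tested, and the members spanned −3.60 to 2.69. Choosing genes for a high WT meiocyte level favours genes that read high in those libraries. With members chosen from 1 WT meiocyte library and tested against the other 2, 26.5% to 28.5% were lower and 16% to 16.5% higher. A high reading shared by all WT meiocyte libraries would remain in these values, so they cannot exclude that effect. In bulk samples such as these, fewer cells of a type and less RNA per cell cannot be told apart.

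By count, the falls lay mostly among the less enriched members, a description since rank and level come from the same WT libraries as the fold change. Among the 100 higher-ranked members, 17 were lower and 18 higher, with a median log2 fold change of 0.27. Among the 100 lower-ranked, 40 were lower and 15 higher, with a median of −0.72. By level, the 50 least abundant (22.3 to 41.9 TPM in WT meiocyte) held 24 lower and 7 higher members, and the 50 most abundant (226 to 8673 TPM) held 6 of each. The called members therefore differed in weight. The 57 lower members summed to 1931 TPM in *cmt3b* meiocyte and 8753 TPM in WT meiocyte, and the 33 higher members to 13504 TPM in *cmt3b* meiocyte and 5108 TPM in WT meiocyte. On the TPM scale all changes sit lower than in the edgeR fit, the median of the 10467 features being −0.23 there and −0.04 in the fit.

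**Figure D2:**
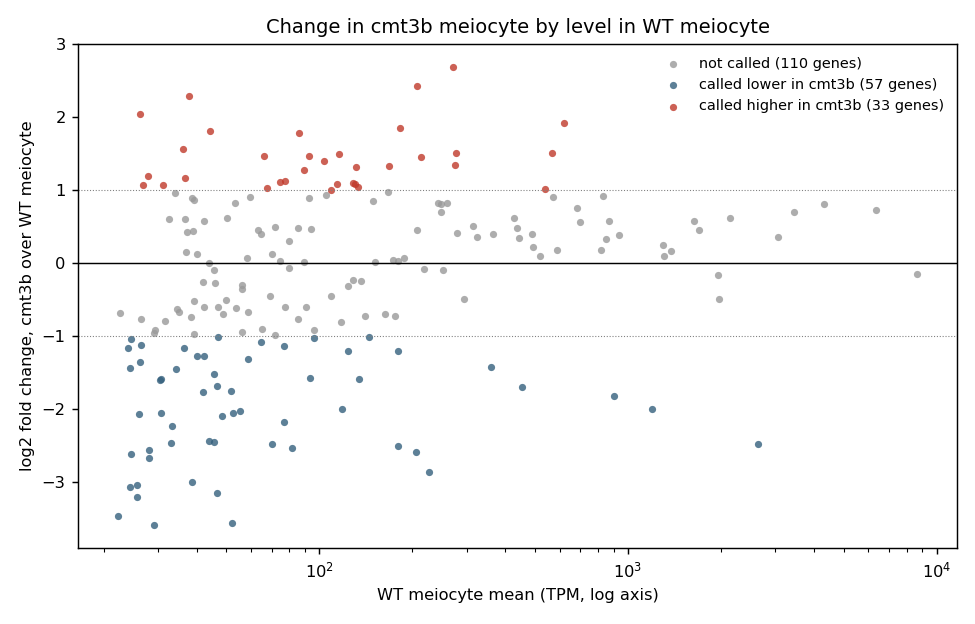
Log2 fold change of each meiocyte-enriched gene in cmt3b over WT meiocyte (vertical axis, edgeR) against its WT meiocyte mean (horizontal axis, TPM, log scale), with genes called lower in blue and higher in red and dotted lines at a 2-fold change. Lower calls crowd at the low end, 24 of the 50 least abundant genes against 6 of the 50 most abundant.

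The 2 largest falls by log2 fold change were in genes of low level. LOC_Os09g11780 had 2.75, 2.22 and 1.31 TPM in *cmt3b* meiocyte, against 27.9, 30.1 and 29.4 TPM in WT meiocyte (log2 fold change −3.60 ± 0.26 SE, edgeR adjusted p = 1.84e-12). It rested on 4 to 7 counts per *cmt3b* library and 55 to 74 per WT library. LOC_Os06g41210 had 3.15, 3.36 and 4.75 TPM in *cmt3b* meiocyte, against 53.1, 47.5 and 55.3 TPM in WT meiocyte (log2 fold change −3.57 ± 0.15 SE, edgeR adjusted p = 8.79e-18). In all, 23 members were below 10 TPM in *cmt3b* meiocyte and none was under 1 TPM. Abundant members fell as well, and 2 are named after their values were seen. LOC_Os08g43240 had 420.3, 407 and 402 TPM in *cmt3b* meiocyte, against 2554, 2675 and 2666 TPM in WT meiocyte (log2 fold change −2.48). LOC_Os04g58120 had 275, 242 and 260.4 TPM in *cmt3b* meiocyte, against 1168, 1226 and 1188 TPM in WT meiocyte (log2 fold change −2.003). They made up a large part of the fall in summed TPM.

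The 2 largest rises by log2 fold change were in genes with means of over 200 TPM in WT meiocyte. LOC_Os03g18480 had 1578, 1420.5 and 1553 TPM in *cmt3b* meiocyte, against 275, 272 and 265 TPM in WT meiocyte (log2 fold change 2.69 ± 0.050 SE, edgeR adjusted p = 1.5e-25). LOC_Os11g10940 had 958, 943 and 989 TPM in *cmt3b* meiocyte, against 199, 210.1 and 211 TPM in WT meiocyte (log2 fold change 2.42 ± 0.047 SE, edgeR adjusted p = 2.58e-25). In both genes every *cmt3b* library lay far above every WT library. Members of low level rose too, among them LOC_Os06g31890, named after its values were seen, with 161, 176 and 149 TPM in *cmt3b* meiocyte, against 37.2, 36.9 and 39.3 TPM in WT meiocyte (log2 fold change 2.30). LOC_Os11g10940 neighbours the top-ranked LOC_Os11g10880 and LOC_Os11g10890, whose changes were much smaller (log2 fold changes 0.70 and 0.73).

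Change also went with gene length. Of the 50 shortest members (156 to 312 bp), 26 were lower and 3 higher, with a median log2 fold change of −1.07. Of the 50 longest (993 to 4282 bp), 7 were lower and 14 higher, with a median of 0.49. Across the 200 members, Spearman's rho of the log2 fold change was 0.36 with length and 0.35 with WT meiocyte level. These are descriptions over genes of the same 6 libraries, in which short members were also the less abundant. Across the other 10267 features with at least 10 TPM the values were −0.09 and 0.07. Among those of at most 550.5 bp (718 features), 16.02% were lower and 17.5% higher, against 41 lower and 11 higher of the 100 members of that length. The part of library preparation, in which the cDNA was sheared, in this pattern was not tested.

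**Figure D3:**
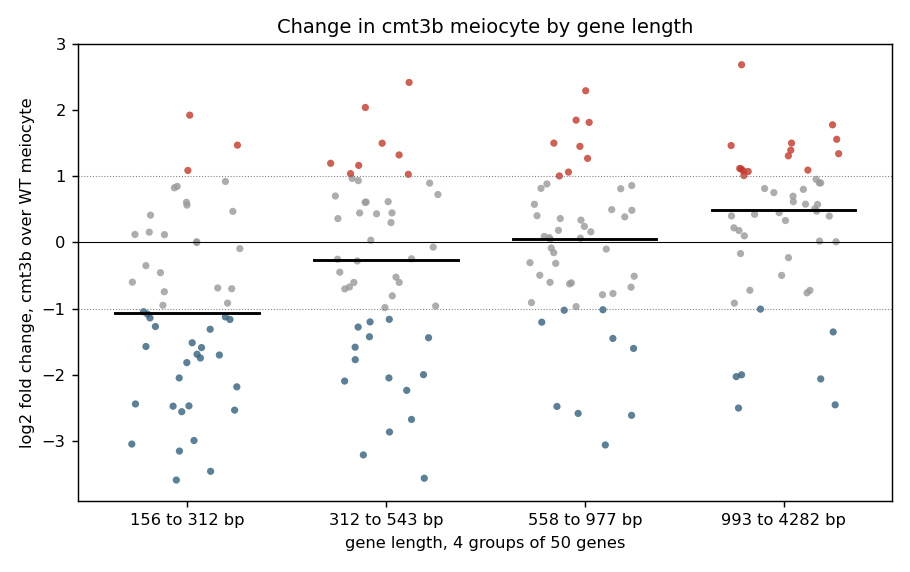
Log2 fold change in cmt3b over WT meiocyte (edgeR) for the 200 meiocyte-enriched genes in 4 length groups of 50 genes each, with the median as a bar and genes called lower in blue and higher in red. The median climbs from −1.07 in the shortest group to 0.49 in the longest.

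Of the 13 runs, 6 had every member below 0, 4 had every member above 0 and 3 had members on both sides. No run held calls in both directions, 3 runs held no call, and the size of the change varied within runs. Lower runs included LOC_Os06g16500 to LOC_Os06g16740 on chromosome 6 (7 members, 4 called lower, log2 fold changes −2.24 to −0.51) and LOC_Os11g16680 to LOC_Os11g16910 on chromosome 11 (3 members, all called lower, −2.62 to −1.44). The second summed to 18.4 TPM in *cmt3b* meiocyte and 94.4 TPM in WT meiocyte. Its span held 18 other features, 1 of them without any count, and 4 were also lower and none higher. Over all features tested, 7.9% were lower and 10.7% higher. Other spans differed. The 9 other features within LOC_Os06g41150 to LOC_Os06g41280 held 1 lower and 1 higher, and the 9 within LOC_Os12g35820 to LOC_Os12g35920 held neither.

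A second stretch of chromosome 6 moved the other way. LOC_Os06g42220 to LOC_Os06g42480 held 5 members, 3 of them called higher, with log2 fold changes of 0.82 to 1.5, among them the annotated LOC_Os06g42270 and LOC_Os06g42440. The 5 summed to 1167 TPM in *cmt3b* meiocyte and 628 TPM in WT meiocyte. Of the 22 other features in that span, 2 had no count, 6 were higher and none lower (over all features tested, 10.7% higher and 7.9% lower). How many of the 22 passed the filter is not given here. The lipase-like LOC_Os06g42860 lay further along the same arm. Runs leaned lower, with 18 of their 51 members called lower and 5 higher, as did pairs (18 and 5 of 48), whereas members standing alone were balanced (21 lower and 23 higher). Members in runs were also shorter (median 417 bp, against 729 bp for single ones), and the part of length in this was not tested.

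**Figure D4:**
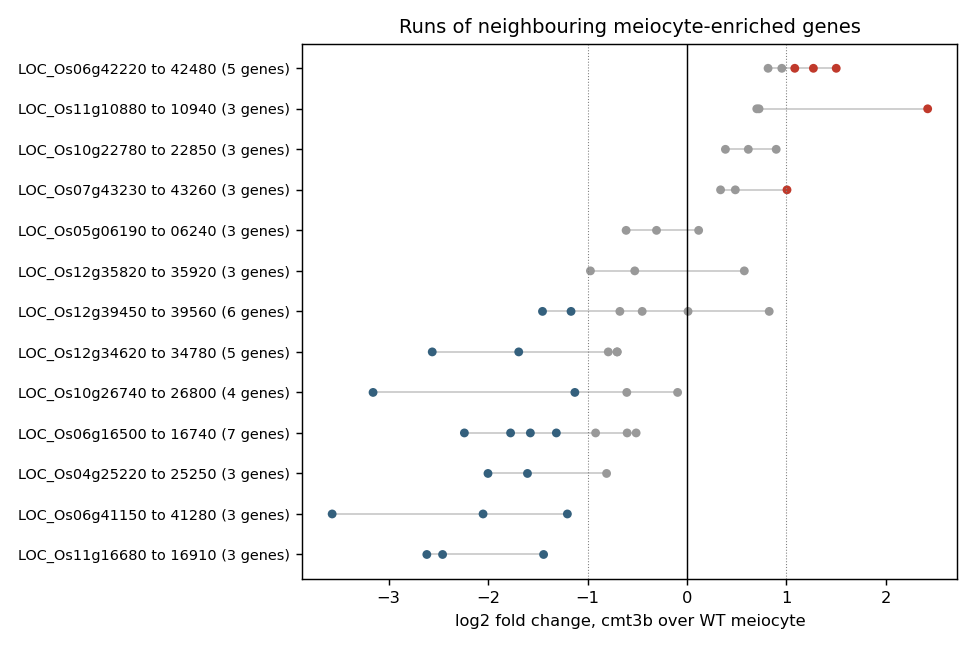
Log2 fold change in cmt3b over WT meiocyte (edgeR, horizontal axis) of the members of each of the 13 runs of neighbouring meiocyte-enriched genes, named by their first and last locus, with genes called lower in blue and higher in red. The runs sort into 6 wholly below 0, 4 wholly above 0 and 3 that cross it.

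The pattern could also be described among mutant cells, which the ranking had not used. Against *cmt3b* sperm, 194 members were higher in *cmt3b* meiocyte (195 passed the filter, background 46.6% of features tested). Against *cmt3b* egg, 198 were higher (198 passed, background 27%), and against *cmt3b* zygote 195 were higher (195 passed, background 27.5%). These counts are no test of enrichment, since a member with hardly a count in the other cell type passes the filter only by being high in *cmt3b* meiocyte. The members that did not pass the filter were too low in both groups of the pair to be tested. Among members with more than 3 counts in a library of the other cell type, 28 of 29 were higher in *cmt3b* meiocyte than in *cmt3b* sperm, 35 of 35 than in *cmt3b* egg and 32 of 32 than in *cmt3b* zygote. These counts are descriptions too, since the ranking had kept ratios of at least 23.3 over the same cell types in WT. The share over all features with that many counts is not given here.

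For the others the difference is a lower bound, since 171, 165 and 168 members had at most 3 counts in every *cmt3b* sperm, egg and zygote library. LOC_Os11g10890 had no count in any of the 8, and was at least 17820-fold higher in *cmt3b* meiocyte than in *cmt3b* sperm (in CPM, counts scaled to library size, with 3 counts in a single sperm library as the floor). LOC_Os06g37680 likewise had none in *cmt3b* sperm and was at least 17887-fold higher in *cmt3b* meiocyte. The one member tested in sperm that missed the call was LOC_Os01g65880, at 245 TPM in *cmt3b* meiocyte and 179.7 TPM in *cmt3b* sperm (log2 fold change 0.56 ± 0.062 SE, edgeR adjusted p = 3.87e-09).

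By summed TPM, *cmt3b* sperm was where meiocyte-enriched transcripts appeared most. The set summed to 561 TPM in *cmt3b* sperm and 111 TPM in WT sperm, and 3 genes made up 71.2% of the *cmt3b* sum. Members at or above 1 TPM were 23 in *cmt3b* sperm and 20 in WT sperm. The anther wall list, which held no member, was also higher in *cmt3b* sperm, and whether both rises had a common source was not tested. With WT sperm counted as 1 sample there is no test, and a gene was counted where every *cmt3b* library differed more than 2-fold from WT sperm on TMM-normalized CPM with a prior count of 2. By this rule 18 of the 200 were higher (35.2% of the 22567 features compared were) and 9 lower (32.9%). Only 31 members passed the filter on low counts, and 172 had at most 3 counts in both WT sperm files. Member counts here and in the egg and zygote comparisons below are over all 200. The background shares are over features that passed the filter, so the values are not alike and are not compared.

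LOC_Os01g65880 had 182, 181 and 176 TPM in *cmt3b* sperm, against 3.68 and 3.74 TPM in the WT sperm files (log2 ratio 5.54). LOC_Os02g15860 had 119, 116 and 121 TPM in *cmt3b* sperm and no count in WT sperm, and was at least 126-fold higher. LOC_Os03g26650, named because it was the only other member above 100 TPM there, had 107, 96.7 and 99.4 TPM in *cmt3b* sperm, against 2.18 and 2.05 TPM in WT sperm (log2 ratio 5.47). In each gene the *cmt3b* libraries lay close together and far above WT.

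The 3 genes were not alike elsewhere. LOC_Os02g15860 fell in *cmt3b* meiocyte, to 213, 219 and 232 TPM, against 912, 891 and 893 TPM in WT meiocyte (log2 fold change −1.82 ± 0.045 SE, edgeR adjusted p = 4.29e-23), and stood at 29.0 ± 3.94 TPM in WT microspore (SD, n = 3). LOC_Os01g65880 and LOC_Os03g26650 changed by less than 2-fold in meiocyte (log2 fold changes 0.45 and 0.58) and stood at 5.22 and 0.788 TPM in WT microspore. All 3 were near 0 in *cmt3a* egg (0 to 0.239 TPM). Of the 3 most abundant members in WT meiocyte, LOC_Os06g37680 and LOC_Os11g10890 had no count in any *cmt3b* sperm library, and LOC_Os04g38840 had 11.2, 10.7 and 10.04 TPM in *cmt3b* sperm, against 31.0 and 31.5 TPM in WT sperm. Of the 18 members higher in *cmt3b* sperm, 6 were also higher in *cmt3b* meiocyte, 2 lower and 10 not called.

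**Figure D5:**
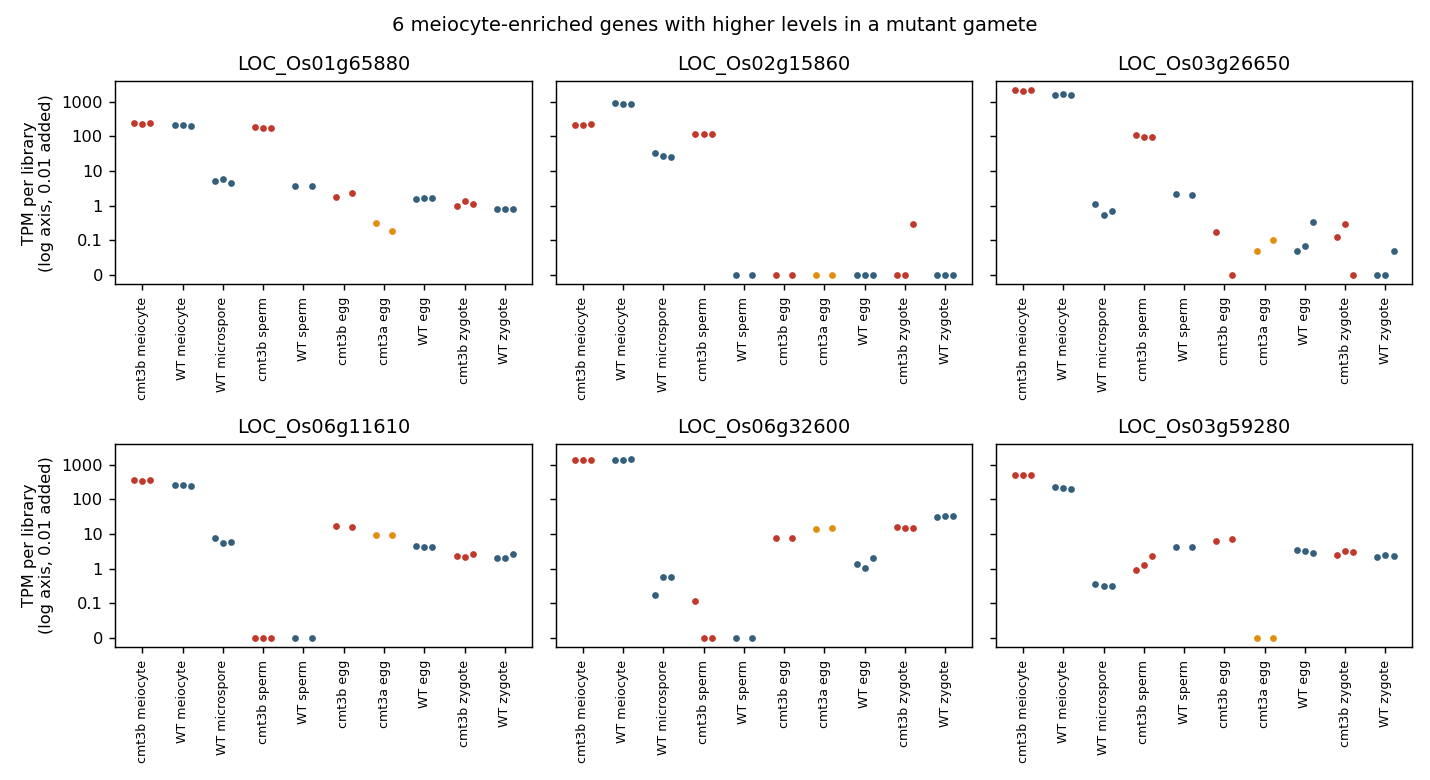
TPM in each library (log axis, 0.01 added) for 6 meiocyte-enriched genes over the 10 groups, with cmt3b in red, cmt3a in orange and WT in blue. In the upper row cmt3b sperm stands between 96.7 and 182 TPM against at most 3.74 TPM in WT sperm, and in the lower row the cmt3b eggs stand above the WT eggs.

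In *cmt3b* egg a small number of members rose, mostly at low levels. Of the 200, 12 were higher (14.3% of the 21466 features tested) and 1 lower (8.43%), with 23 passing the filter, and 161 had at most 3 counts in every WT egg library. LOC_Os08g44470 had 60.3 and 59.3 TPM in *cmt3b* egg, against 31.4, 31.5 and 32.7 TPM in WT egg (log2 fold change 1.35 ± 0.067 SE, edgeR adjusted p = 4.63e-18). LOC_Os06g11610 had 16.5 and 15.8 TPM in *cmt3b* egg, against 4.45, 4.08 and 4.28 TPM in WT egg (log2 fold change 2.36 ± 0.12 SE, edgeR adjusted p = 2.06e-17). These were the only members at or above 10 TPM in *cmt3b* egg. SCL1 had 6.23 and 7.18 TPM in *cmt3b* egg, against 3.42, 3.29 and 2.85 TPM in WT egg (log2 fold change 1.52 ± 0.22 SE, edgeR adjusted p = 3.52e-07).

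SCL1 thus passed the test in *cmt3b* meiocyte and *cmt3b* egg, but its levels differed elsewhere. It had 0.92, 1.28 and 2.31 TPM in *cmt3b* sperm, against 4.22 and 4.07 TPM in WT sperm, and no count in *cmt3a* egg, at least 8.73-fold lower than in WT egg. In *cmt3b* zygote it did not pass the test (log2 fold change 0.33 ± 0.26 SE, edgeR adjusted p = 0.249). The other 4 annotated members did not pass the filter in any gamete or zygote comparison.

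In *cmt3a* egg 8 members were higher (19.6% of the 22744 features tested) and 10 lower (18.5%), with 25 passing the filter. LOC_Os06g32600 had 14.8 and 13.5 TPM in *cmt3a* egg, against 1.37, 1.02 and 2.02 TPM in WT egg (log2 fold change 3.56 ± 0.19 SE, edgeR adjusted p = 2.17e-11). LOC_Os06g11610 had 9.44 and 9.39 TPM in *cmt3a* egg (log2 fold change 1.48 ± 0.12 SE, edgeR adjusted p = 5.36e-09). Both had been called higher in *cmt3b* egg too, where LOC_Os06g32600 had 7.80 and 7.75 TPM (log2 fold change 2.80 ± 0.25 SE), and LOC_Os01g57370 was the only other member higher in both. The 2 comparisons share the 3 WT egg libraries. The *cmt3a* egg libraries detected more features than the WT egg libraries, and the part of that in these counts was not tested.

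In *cmt3b* zygote 3 members were higher (8.67% of the 20638 features tested) and 3 lower (8.08%), with 16 passing the filter. LOC_Os01g57370 had 4.10, 2.81 and 4.31 TPM in *cmt3b* zygote, against 1.07, 1.22 and 1.02 TPM in WT zygote (log2 fold change 1.80 ± 0.19 SE, edgeR adjusted p = 6.67e-09), and had 3.80 and 4.52 TPM in *cmt3b* egg, against 1.07, 1.64 and 1.37 TPM in WT egg. LOC_Os09g36700 had 3.59, 2.90 and 4.12 TPM in *cmt3b* zygote, against 1.15, 1.64 and 2.21 TPM in WT zygote (log2 fold change 1.06 ± 0.23 SE, edgeR adjusted p = 2.13e-04). Both levels are low in absolute terms.

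The 2 members with the highest zygote levels were lower in the mutant. LOC_Os08g44470 had 29.3, 24.5 and 31.4 TPM in *cmt3b* zygote, against 70.0, 73.7 and 64.5 TPM in WT zygote (log2 fold change −1.26 ± 0.076 SE, edgeR adjusted p = 2.53e-13). LOC_Os06g32600 had 15.5, 15.2 and 15.1 TPM in *cmt3b* zygote, against 31.1, 33.5 and 32.97 TPM in WT zygote (log2 fold change −1.10 ± 0.088 SE, edgeR adjusted p = 5.52e-11). Both had been higher in *cmt3b* egg. The third, LOC_Os06g37680, had 0, 0 and 1.11 TPM in *cmt3b* zygote, against 1.56, 1.98 and 2.16 TPM in WT zygote. The number of lower members in the zygote rested on single libraries, being 1.5% of the 200 with all of them, 2.5% without WT zygote replicate 2, and 3% without *cmt3b* zygote replicate 2 or 3. Without WT egg replicate 3, the lower members in *cmt3b* egg were 1% of the 200, against 0.5% with it.

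Counted over the 4 mutant gamete and zygote comparisons, 33 of the 200 were higher in at least 1 and 7 in at least 2. Of the other 10267 features with at least 10 TPM in WT meiocyte, 48.3% were higher in at least 1 and 11.6% in at least 2, and few members were abundant enough in these cells to be tested. For the larger part no such appearance was detected, as 159 of the 200 stayed under 1 TPM in *cmt3b* sperm, *cmt3b* egg, *cmt3a* egg and *cmt3b* zygote. In all 200 a meiocyte group had the highest level of the 10 groups, in 83 of them *cmt3b* meiocyte. Among the WT groups the ranking had fixed this, so only the mutant groups could have differed.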

How the data were processed

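RNA-seq was analysed for 27 libraries in 10 groups, and the bisulfite samples of the series were not used here. Per the study's methods and labels, the authors used fastp 0.20.1 for read cleaning, HISAT2 for alignment (rice genome MSU7.0) and featureCounts for counting by gene (their versions and the strand setting not given in the sources used here). The deposited tables hold raw counts, FPKM and TPM per gene made by the authors. FPKM served only to derive gene length, TPM to choose members and give levels. The methods name one cDNA amplification kit and the labels another. No feature sequence was used.

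Counts were tested with edgeR 4.0.16 (TMM, filterByExpr with a minimum count of 10, quasi-likelihood test, R 4.3.3), 1 fit per pair of groups over all features, Benjamini-Hochberg adjusted, with calls where adjusted p was below 0.01 and the change above 2-fold. WT sperm was 1 sample and not tested. Folds against groups with at most 3 counts in every library are bounds from 3 counts in the smallest library. The fit was tested on simulated data. Named genes were annotated members, the 3 most abundant, the 3 with the highest ratio, the features at the edge of the set, the 2 largest falls and rises in *cmt3b* meiocyte, and for each mutant gamete or zygote the 2 most abundant higher members, with no overlap between libraries; others were named after their values were seen. The 10 tapetum and anther wall loci were listed from general knowledge. Members, lists and tests were chosen with earlier results of these data known. Alternatives were DESeq2 1.42.0, RLE size factors, no filter, other set sizes and minimums, an added constant of 0.1, members from 1 WT library, a replicate block, a fit of all groups, a prior count of 0.5, and leaving out libraries.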

Additional observations from a re-analysis of the deposited data

Results flagged for a closer look

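The members below changed in opposite directions in *cmt3b* meiocyte and another *cmt3b* cell type, each against WT, and most were named because of this. They were picked on the same libraries, so the differences are descriptions, with no test. LOC_Os10g24690 differed between egg and meiocyte by 3.83 ± 0.43 on the log2 scale (SE, edgeR interaction fit), with 1.82 in egg and −2.03 in meiocyte. LOC_Os04g15920 differed by −3.71 ± 0.48 (SE), with −2.69 in egg and 1.01 in meiocyte. It had 0.0745 and 0.198 TPM in *cmt3b* egg, against 1.41, 1.08 and 1.26 TPM in WT egg, so the egg change was within low levels. Its meiocyte change fell just short of 2-fold without WT meiocyte replicate 1 or 3 or without *cmt3b* meiocyte replicate 1 or 3 (0.981 to 0.998 on the log2 scale). LOC_Os09g36700 differed between zygote and meiocyte by 3.54 ± 0.21 (SE), with 1.06 in zygote and −2.51 in meiocyte.

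In sperm the difference was likewise not tested, and WT sperm is 1 sample. LOC_Os02g15860 had a log2 ratio of 7.64 in sperm, a value that depends on the prior count, and −1.82 in meiocyte. LOC_Os09g36700 had 3.73 in sperm, also against no count in WT, and −2.51 in meiocyte. LOC_Os12g35430 had −3.94 in sperm and 1.09 in meiocyte, and LOC_Os08g17500 had −3.76 in sperm and 1.11 in meiocyte. Both of these were at or near 0 in *cmt3b* sperm and at 1.35 to 1.46 TPM in WT sperm.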

How the results depend on the processing

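Of 215 alternative values for the set, 189 kept their direction and stayed within 1.5 times the value reported (within the spread between libraries for the median). For the 31 genes whose *cmt3b* meiocyte change was followed, direction and call held in 337 of 341 alternative values, and LOC_Os04g15920 fell short of 2-fold in the other 4. For *cmt3b* meiocyte, the top 100 members gave 17% lower in place of 28.5%. The median log2 fold change, −0.08, was near 0 and reversed to 0.27 for the top 100 and to 0.00018 for members from WT meiocyte replicate 1 alone. It was −0.0096 for those from replicate 2, −0.38 for the top 400 and −0.52 with an added constant of 0.1, which kept 155 of the 200 members and favours genes at 0 elsewhere.

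For gametes the counts were small. An added constant of 0.1 gave 2% higher and 0% lower in *cmt3b* egg (6% and 0.5% reported), 1.5% lower in *cmt3a* egg (5% reported), 0.5% lower in *cmt3b* zygote (1.5% reported), and 5% higher and 2% lower in *cmt3b* sperm (9% and 4.5% reported). With no filter on low counts, 1% were lower in *cmt3b* egg, 8.5% lower in *cmt3a* egg, and 2.5% higher and 4.5% lower in *cmt3b* zygote. Lower members in *cmt3b* egg were 0% for the top 100, 1.25% for the top 400 and 1% for members from WT egg replicate 3 alone. Lower members in *cmt3b* zygote were 2.5% for the top 400 and for members from WT zygote replicate 2 alone. Leaving out 1 library gave 28% to 29% lower and 15.5% to 17% higher in *cmt3b* meiocyte, 0.5% to 1% lower in *cmt3b* egg, and 1% to 3% lower in *cmt3b* zygote. Where 1 egg library was left, it was assumed to vary like the other group. The cause was not tested for any of these. Same-numbered libraries did not deviate together (correlations −0.071 to 0.056 in 18 pairs). A replicate block left the member counts as they were in all comparisons but 1, with 1% lower in *cmt3b* egg. The ranking chose members low in WT sperm, egg and zygote, and 160 to 172 had 3 counts or fewer in every WT library of the cell type. Changes below that level were not detectable at the depth of these libraries.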
